A study of Mus musculus with 30 samples.

Results

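The complement genes described here are C1qa, C1qb, C1qc, C1ra, C1s1, C3, C4b, Cfb and C3ar1. They are the 9 rows of the deposited count table whose GENCODE symbol is one of these names, out of 55487 genes in the table, and all 9 have counts in hearts of all 8 groups. Messenger RNA was counted in 30 mouse hearts taken 8 weeks after surgery, which was either a sham operation or transverse aortic constriction (TAC), in which a clip on the aorta makes the heart pump against a higher pressure. The floxed cohort had mice labelled CPT1a floxed (FF_sham and FF_TAC, 4 hearts each) and mice labelled as a cardiac specific CPT1a knockout (KO_sham and KO_TAC, 4 hearts each). The AAV9 cohort had C57Bl/6 mice given PBS (PBS_sham and PBS_TAC, 3 hearts each) or AAV9.Cpt1a (AAV_sham and AAV_TAC, 4 hearts each). AAV9 is an adeno-associated virus used to carry genes into heart muscle, and the series text names a cTNT promoter, the cardiac troponin T promoter active in heart muscle cells, in front of its Cpt1a. The labels give neither the Cre driver of the knockout nor the age or sex of the mice, and they do not say which mouse had which of the clip sizes used. Cpt1a encodes a carnitine palmitoyltransferase, the gatekeeper of fatty acid burning in mitochondria, and per the series text the study asked what its rise does in the pressure-loaded heart.

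Complement is a cascade of blood and tissue proteins that tags microbes, dying cells and debris for removal. In the classical pathway, C1q, built from the chains of C1qa, C1qb and C1qc, binds a target and carries the proteases C1r and C1s, which cut C4 and C2 to form an enzyme that splits C3. Factor B serves the alternative pathway, which amplifies C3 splitting, and the C3a receptor answers to the small fragment that C3 releases. Most circulating complement comes from the liver, while in tissues C1q is made mainly by macrophages, and C1r, C1s, C3 and C4 also by fibroblasts and other stromal cells.

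Several libraries stood apart in ways that touch the results. The 7 libraries FF_TAC 2, FF_TAC 3, KO_sham 2 and all 4 of KO_TAC held at most 51.1 CPM (counts scaled to the library total) of summed haemoglobin transcripts, against at least 293.9 CPM in the other 23. The same 7 held 2227 to 5650 CPM of 12 early response genes, against 181.1 to 958.7 CPM elsewhere. Myl7, a myosin light chain of the atria, was under 0.72 CPM in 16 libraries and from 20.8 to 3188 CPM in the other 14. Cpt1a was at 21.1 to 24.4 CPM in 3 of the 4 KO_sham libraries and at 46.7 CPM in the library labelled KO_sham 2, within the range of FF_sham (38.7 to 53.7 CPM). It was at 11.3 to 19.9 CPM in KO_TAC, against 16.5 to 50.3 CPM in FF_TAC. Of the labelled tissue, 6 heart muscle genes summed to 44020 to 59570 CPM in 29 libraries, and to 19520 CPM in PBS_sham 3.

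Levels below are CPM scaled by TMM over the 30 libraries, with the standard deviation (SD) between libraries. Sums, shares and ratios of genes use CPM, while levels are otherwise compared between genes only per kilobase of exon. On that scale, in FF_sham, C3 (42.4 ± 21.9 CPM per kb, SD, n = 4), C1qb (40.7 ± 5.96) and C1qa (37.9 ± 1.89) were the highest and did not differ from each other beyond their spread. C1qc followed at 19.5 ± 2.0 CPM per kb over its joined exons, or 31.3 CPM per kb over its longest transcript. C1s1 (9.62 ± 2.69), C1ra (6.07 ± 1.94) and C4b (5.59 ± 2.41) formed the next step, again within each other's spread. C3ar1 stood at 1.4 ± 0.226 and Cfb at 0.113 ± 0.0904 CPM per kb. The Cfb value may be too low, since 2246 of its 2825 exonic bases are shared with the read-through gene Gm20547. In KO_TAC the order at the top turned to C1qb (80.6 ± 17.1), C1qa (75.0 ± 18.6) and C3 (63.0 ± 25.4), which overlapped, and C4b (13.7 ± 4.63) came level with C1s1 (13.2 ± 3.66).

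**Figure D1:**
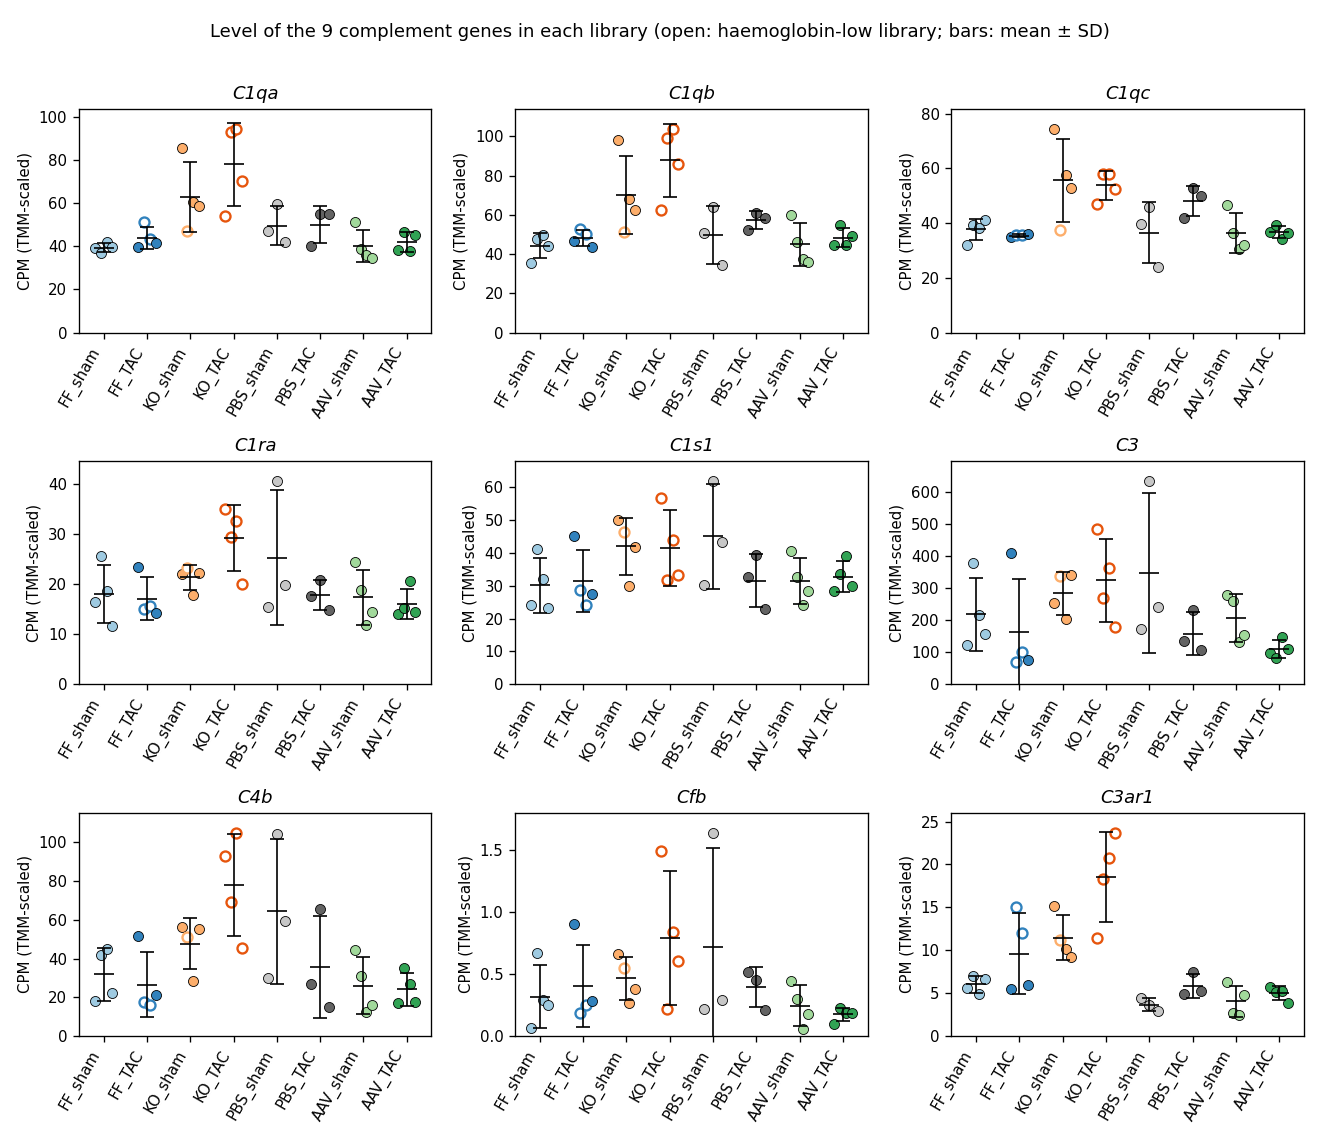
Level of each of the 9 complement genes in CPM (vertical axes, each from 0) in the libraries of 8 groups (horizontal axes). Points are libraries, open points are the 7 haemoglobin-low libraries and bars are the mean ± SD; the KO_TAC libraries lie above all FF_TAC libraries for C1qa, C1qb and C1qc and spread into the FF_TAC range for the other 6.

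The clearest result came from the knockout and control hearts after TAC. Of the 9 complement genes, 6 were higher in KO_TAC than in FF_TAC by edgeR's quasi-likelihood test (Benjamini-Hochberg adjusted p under 0.05 over all genes tested): C1qa, C1qb, C1qc, C1ra, C4b and C3ar1. In the same comparison 14.3% of the 15596 genes tested were called, 1175 of them higher and 1060 lower. The other 3 genes, C1s1, C3 and Cfb, had log2 fold changes of 0.43, 1.02 and 1.0 that did not pass. The median log2 fold change over the 9 was 0.89, beside 0.04 over all genes. In RNA from whole hearts, more cells of a type and more RNA per cell cannot be told apart. DESeq2 also called 6 of the 9 higher. All 4 KO_TAC libraries are haemoglobin-low, so in this contrast genotype and that state can be separated only through FF_TAC 2 and FF_TAC 3. Other measures moved with this contrast too. Mitochondrial transcripts took 12.08% to 18.66% of counts in KO_TAC and 20.89% to 22.61% in FF_TAC. Of 5 endothelial markers 3 were called lower (Kdr at -1.35 the most) and 1 higher, and of 6 heart muscle markers 2 were called lower. Their part in the complement results was not tested.

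**Figure D2:**
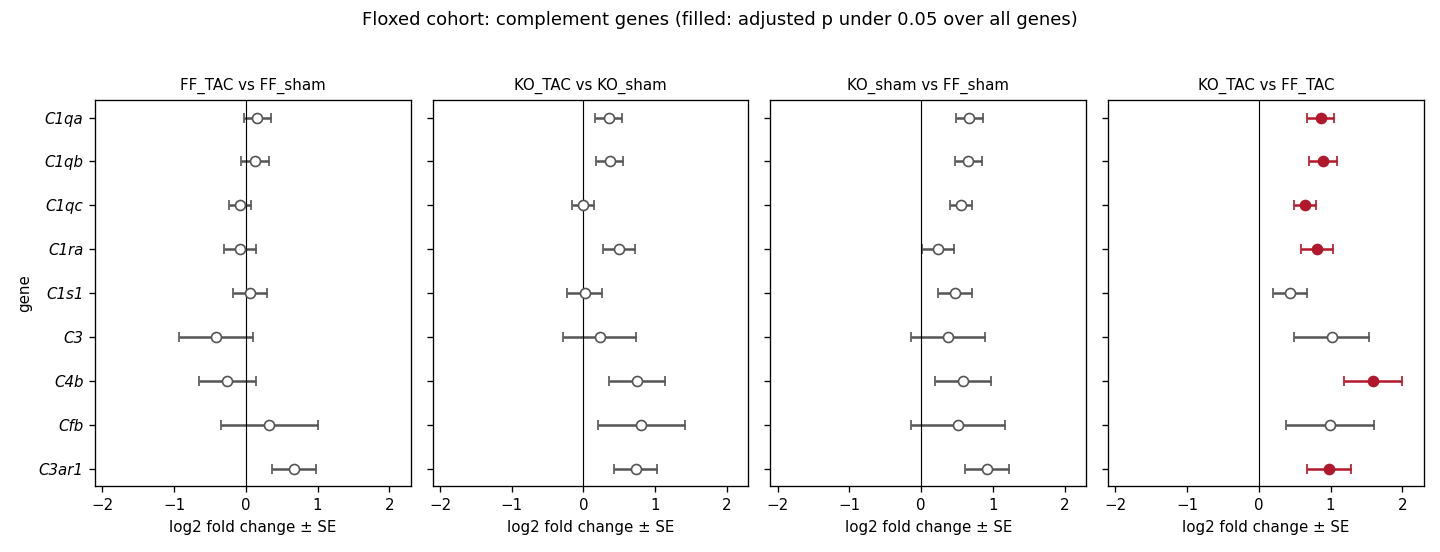
Log2 fold change ± SE (horizontal axes) of the 9 complement genes (vertical axis) in 4 comparisons of the floxed cohort, from edgeR. Filled points passed an adjusted p of 0.05 over all genes: 6 of the 9 did so in KO_TAC against FF_TAC and none in the other 3 panels. Panels that share a group are not independent.

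The C1q genes lie side by side within 18.7 kb of the minus strand (GRCm38 chr4:136880129-136898803, C1qb, C1qc and C1qa in coordinate order). C1qa, which encodes the A chain, read 54.1, 93.3, 94.3 and 70.5 CPM in KO_TAC 1 to 4 and 39.9, 51.4, 43.3 and 41.6 CPM in FF_TAC 1 to 4. The lowest KO_TAC library was above the highest FF_TAC library, and KO_TAC 1, the library with the most Myl7, was the lowest of its group. The log2 fold change was 0.86 (SE 0.19, adjusted p 0.00796), a ratio of 1.82.

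C1qb, the B chain gene, read 62.2, 99.1, 103.6 and 86.0 CPM in KO_TAC 1 to 4 and 46.6, 53.0, 50.4 and 43.7 CPM in FF_TAC 1 to 4. The groups did not overlap, and the log2 fold change was 0.89 (SE 0.19, adjusted p 0.00766). C1qc, the C chain gene, read 47.0, 57.9, 58.1 and 52.3 CPM in KO_TAC against 34.7, 35.6, 35.6 and 35.9 CPM in FF_TAC. Its FF_TAC libraries lay close together and under every KO_TAC library, with a log2 fold change of 0.64 (SE 0.15, adjusted p 0.0134). Among all genes tested, 6.05% had every KO_TAC library above every FF_TAC library.

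The C1q result kept its call in the fits that left out each of the 8 libraries in turn. Log2 fold changes in those fits ran from 0.74 to 1.0 for C1qa, 0.80 to 1.02 for C1qb and 0.58 to 0.69 for C1qc. With a term for haemoglobin-low libraries in the fit they were 0.90, 0.94 and 0.77, with adjusted p of 0.0239, 0.0218 and 0.0149. That term is set by FF_TAC and KO_sham together, which for C1qa point opposite ways. In FF_TAC the haemoglobin-low libraries read 43.3 to 51.4 CPM and the others 39.9 to 41.6 CPM. The library labelled KO_sham 2 read 46.9 CPM and the others of its group 58.9 to 85.6 CPM, so the fit does not rest on FF_TAC alone. It rests in part on that library, whose Cpt1a lay within the range of FF_sham. When only haemoglobin-low libraries were compared, 4 of KO_TAC against FF_TAC 2 and FF_TAC 3, the log2 fold changes were 0.73, 0.77 and 0.60 and none passed (adjusted p 0.405, 0.325 and 0.288). That fit called 0 of 15311 genes of any kind.

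Promoter windows from RefSeq (GRCm38.p6, 250 bases before to 50 after the RefSeq start) matched 6 of the 9 genes: C1qb, C1qc, C1ra, C1s1, C3 and C3ar1. C1qa, C4b and Cfb had no entry. Each window was searched on both strands for 7 motifs: the ETS family core, written AGGAAGT; the C/EBP core, TTGCNNAA; the AP-1 core, which reads TGANTCA; the GAS motif of STAT factors, TTCNNNGAA; the ISRE core of interferon factors, GAAANNGAA; the TATA box, searched as TATAAA; and the NF-kB motif. No match overlapped a match of another motif. The ETS letters occur in the windows of both C1qb and C1qc, on the opposite strand, where they read ACTTCCT. They start 53 bases before the RefSeq start of C1qb and 195 bases before that of C1qc. RefSeq and GENCODE place some starts apart: the RefSeq start lies 13 bases before the GENCODE start of C1qb, but 151 bases inside the GENCODE gene for C1qc and 216 inside it for C1ra, so that the C1qc match lies 44 bases before the GENCODE start. For C3 both agree, and for C3ar1 they differ by 4 bases. C1s1 has a pair of windows with starts 38 bases apart. Of 32851 mouse promoter windows of this length, 9.35% hold the ETS letters. The stretches below, on the gene strand, are shown because the neighbouring genes C1qb and C1qc moved together in the data, with the match in capitals.
C1qb promoter, chr4:136886211-136886320, minus strand: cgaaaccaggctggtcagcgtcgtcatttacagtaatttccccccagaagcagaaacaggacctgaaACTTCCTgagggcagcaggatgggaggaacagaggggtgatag
C1qc promoter, chr4:136893066-136893164, minus strand: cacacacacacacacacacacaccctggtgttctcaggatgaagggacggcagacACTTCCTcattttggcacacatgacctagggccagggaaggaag
A match is a run of letters and not a measured binding site. The C1qc window also holds an NF-kB match 41 bases before its RefSeq start, which is 110 bases inside the GENCODE gene, and the motif is found in 8.46% of windows.

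The shares of the 3 chain genes in summed C1q CPM were set side by side. They are not corrected for exon length (1040, 1088 and 1931 bases for C1qa, C1qb and C1qc), so they are not shares of transcripts. C1qb made up 33.1% to 41.2% of the summed CPM of the C1q genes in the 30 libraries, and C1qa 29.9% to 41.9%. C1qc took the smallest mean share, at 31% ± 1.53 (SD, n = 4) in FF_sham, 27.8% ± 1.81 in FF_TAC, 29.4% ± 1.49 in KO_sham and 24.9% ± 2.77 in KO_TAC. KO_TAC 2, 3 and 4 lay below every library of the other floxed groups, and KO_TAC 1 within them. The C1qc share was also low in PBS_sham (26.6% ± 2.49, n = 3) and stood at 31% ± 0.413 in PBS_TAC. These shares were not tested.

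In KO_TAC against FF_TAC, markers of macrophages, the main known source of C1q, moved with the C1q genes in part. The 12 macrophage markers summed to 152.1 to 201.9 CPM in KO_TAC and 136.7 to 140 CPM in FF_TAC, which did not overlap. Of the 12, only Cd68, a lysosomal membrane protein of macrophages, was called higher (log2 fold change 0.76, SE 0.19, adjusted p 0.0154), none was called lower, and their median was 0.35. None of the 12 was at 0 throughout either group. Summed C1q CPM per CPM of Cd68 was 14.8 ± 1.78 (SD, n = 4) in KO_TAC and 14.5 ± 1.15 in FF_TAC, a difference smaller than the spread. Per CPM of Csf1r, the receptor for the growth factor that sustains macrophages, it was 4.82 ± 1.85 against 3.29 ± 0.308. KO_TAC 2, 3 and 4 read 6.95, 5.71 and 3.74 on that ratio, above the FF_TAC maximum of 3.65, and KO_TAC 1 read 2.89, below the FF_TAC minimum. Whether macrophage number has a part in the C1q result was not tested.

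C1ra and C1s1 encode the mouse proteases C1r and C1s and lie within 30 kb of each other (GRCm38 chr6:124512405-124523443, plus strand, and chr6:124530345-124542359, minus strand). C1ra read 35.1, 29.4, 32.6 and 20.0 CPM in KO_TAC 1 to 4 and 23.5, 15.1, 15.7 and 14.3 CPM in FF_TAC 1 to 4. Only KO_TAC 4 fell below an FF_TAC library, FF_TAC 1. The log2 fold change was 0.81 (SE 0.23, adjusted p 0.0274). The call was lost when any of 5 of the 8 libraries was left out (FF_TAC 2, 3 and 4, KO_TAC 2 and 3), where adjusted p reached 0.0982, and with the haemoglobin term (0.84, adjusted p 0.0719). The direction held in all of those fits, with log2 fold changes from 0.71 to 0.99 over the 8.

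C1s1 read 56.6, 31.9, 44.0 and 33.3 CPM in KO_TAC 1 to 4 and 45.2, 28.6, 24.2 and 27.6 CPM in FF_TAC 1 to 4. FF_TAC 1 lay above 3 of the 4 KO_TAC libraries, and the log2 fold change of 0.43 (SE 0.24, adjusted p 0.235) did not pass. The partner proteases are thus on different sides of the threshold, and the difference between their changes was not tested. C1ra and C1s1 have near-identical copies in the mouse genome, C1rb and C1s2, which held at most 1.03 and 0.299 CPM in any library. C1s1 also overlaps Gm16567 on the opposite strand by 576 bases of exon, and that gene is listed at 0 in all 30 libraries.

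C4b encodes complement C4, the substrate of C1s (GRCm38 chr17:34728380-34743882, minus strand). It had the largest log2 fold change of the 9 genes in this comparison. It read 93.1, 69.2, 104.8 and 45.5 CPM in KO_TAC 1 to 4 and 51.9, 17.5, 16.2 and 21 CPM in FF_TAC 1 to 4. KO_TAC 4 fell below FF_TAC 1, and the other 3 KO_TAC libraries were above every FF_TAC library. The log2 fold change was 1.59 (SE 0.40, adjusted p 0.0171), a ratio of 3.01. Leaving out FF_TAC 4 or KO_TAC 3 ended the call (log2 fold changes 1.48 and 1.42, adjusted p 0.0645 and 0.0583). With the haemoglobin term it was 1.92 (adjusted p 0.0265). C4a, a near-identical neighbour of C4b, was below 1 CPM in every library, and how the counting treated reads that fit both genes is not given in the sources used here.

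C3 encodes the protein on which all complement pathways meet (GRCm38 chr17:57203970-57228136, minus strand). It read 484.2, 270.5, 363.2 and 178.3 CPM in KO_TAC 1 to 4. In FF_TAC 1 to 4 it read 410.8, 69.0, 100.1 and 77.2 CPM, so that FF_TAC 1 stood at over 4 times the next library of its group. The log2 fold change of 1.02 (SE 0.52, adjusted p 0.194) did not pass. Without FF_TAC 1 it was 2.0 (adjusted p 0.008), and all 4 KO_TAC libraries lay above the 3 that remained. FF_TAC 1 also differed from its group in Myl7 (76.4 CPM, against at most 0.184 CPM) and in Upk3b, a marker of the mesothelium that covers the heart (32.2 CPM, against at most 0.613 CPM). An alternative added after seeing these levels kept only libraries with Myl7 under 10 CPM, KO_TAC 2, 3 and 4 against FF_TAC 2, 3 and 4. There the log2 fold change of C3 was 1.74 (adjusted p 0.00681) and that of C4b 2.03 (adjusted p 0.00856). With log2 Myl7 as a covariate over all libraries, C3 was at 0.98 and passed (adjusted p 0.0442).

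The C3 promoter window holds the C/EBP letters 45 bases before the RefSeq start, a motif in 10.8% of windows, and the stretch is shown since C3 is the member at which the pathways join. The C3ar1 window is set beside it because it encodes the receptor of a C3 fragment; it holds the AP-1 letters 22 bases before the start, found in 7.81% of windows. Matches are in capitals.
C3 promoter, chr17:57228147-57228256, minus strand: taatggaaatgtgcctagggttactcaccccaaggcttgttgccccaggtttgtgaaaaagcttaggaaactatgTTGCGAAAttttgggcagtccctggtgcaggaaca
C3ar1 promoter, chr6:122856168-122856277, minus strand: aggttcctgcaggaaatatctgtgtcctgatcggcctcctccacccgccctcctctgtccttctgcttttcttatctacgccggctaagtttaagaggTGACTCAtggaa
The C/EBP letters also occur in the C1ra window, 16 bases after the RefSeq start and 232 bases inside the GENCODE gene. They occur in 1 of the windows of C1s1, 242 bases before the start, and not in the other. The C1ra window further holds the GAS letters, found in 8.3% of windows, 32 bases after the RefSeq start and 248 bases inside the GENCODE gene. TATAAA, found in 13.6%, lies 14 bases after the RefSeq start of C3 and 235 bases before that of C3ar1. The ISRE letters, found in 8.56% of windows, matched none of the 6 genes.

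Cfb encodes factor B of the alternative pathway (GRCm38 chr17:34856374-34862518, minus strand) and was barely detected. It was at or under 1.64 CPM in all 30 libraries, from 1 to 30 counts per library. It read 1.5, 0.215, 0.843 and 0.605 CPM in KO_TAC 1 to 4 and 0.902, 0.184, 0.250 and 0.284 CPM in FF_TAC 1 to 4, with a log2 fold change of 1.0 (SE 0.62, adjusted p 0.285). At this depth no difference was detectable. Of its 2825 exonic bases, 2246 are shared on the same strand with the read-through gene Gm20547, which is listed at 0 in every library, so reads that fit both may be missing from the Cfb count. Cfb was too low to be tested in the AAV9 cohort.

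C3ar1 encodes the receptor for the C3a fragment, carried by macrophages and other myeloid cells (GRCm38 chr6:122847138-122856161, minus strand). It read 11.4, 18.4, 20.7 and 23.7 CPM in KO_TAC 1 to 4 and 5.47, 15.0, 12.1 and 5.90 CPM in FF_TAC 1 to 4. KO_TAC 1 lay within the FF_TAC range and the other 3 above it, and the log2 fold change was 0.98 (SE 0.30, adjusted p 0.0427). In FF_TAC the 2 haemoglobin-low libraries (12.1 and 15.0 CPM) were over 2 times as high as the other 2. With the haemoglobin term the log2 fold change was 0.71 and the call was lost (adjusted p 0.149), and among haemoglobin-low libraries alone it was 0.45 (adjusted p 0.664). Leaving out any of 5 of the 8 libraries (FF_TAC 1 or 4, KO_TAC 2, 3 or 4) also ended the call, with adjusted p up to 0.136. In libraries with Myl7 under 10 CPM alone it was lost too (0.95, adjusted p 0.0703). C5ar1, which encodes the receptor for the C5a fragment, showed the same split in FF_TAC, with 17.9 and 19.0 CPM in the haemoglobin-low libraries and 4.79 and 5.79 CPM in the others. The 6 markers of neutrophils, another myeloid source, summed to 2.65 to 6.41 CPM in KO_TAC and 1.41 to 3.27 CPM in FF_TAC. Only 2 of the 6 were high enough to be tested. Of these only 1, Csf3r, had a log2 fold change above 0, and it was called higher (1.38). The part of neutrophils in the C3ar1 result was not tested.

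Markers of fibroblasts moved with C1ra and C4b. The 7 fibroblast markers summed to 1728 to 1900 CPM in KO_TAC and 991.3 to 1103 CPM in FF_TAC, and 4 of the 7 were called higher, with Col1a1 (1.03), Col1a2 (0.98) and Dcn (0.86), which encode matrix proteins, the largest. Pdgfra, a fibroblast receptor gene, was the 1 of the 7 with a log2 fold change below 0 (-0.06, SE 0.23, not called). The level of C4b relative to fibroblast markers depended on the marker. Per CPM of Pdgfra, C4b was at 3.11 ± 1.22 (SD, n = 4) in KO_TAC and 0.904 ± 0.245 in FF_TAC, and the libraries did not overlap. Per CPM of Dcn, a ratio added after seeing these values, it was 0.0787 ± 0.0207 against 0.0468 ± 0.0243, and the libraries overlapped. C1s1 was at 1.60 ± 0.281 against 1.15 ± 0.2 per CPM of Pdgfra and at 0.0427 ± 0.0126 against 0.0563 ± 0.0112 per CPM of Dcn, so the sign of its difference turned with the marker. The 6 mesothelial markers summed to 8.10 to 102 CPM in KO_TAC and 5.79 to 71.6 CPM in FF_TAC, and none was called. Of liver markers, Alb, the albumin gene, was at 0 in all 8 of these libraries, while Ttr, the transthyretin gene, was called higher (2.13) and the 6 summed to 0.749 to 3.52 CPM in KO_TAC and 0.338 to 0.624 CPM in FF_TAC. The part of fibroblast number in the C1ra and C4b results was not tested.

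The 9 genes fell into 2 sets by how they varied between hearts of the same group. Over deviations of log2 CPM from the group means in the 30 libraries, Pearson's r ran from 0.76 to 0.89 over the 10 pairs among C1ra, C1s1, C3, C4b and Cfb. It ran from 0.79 to 0.91 over the 3 pairs of C1q genes, from 0.42 to 0.50 between C3ar1 and the C1q genes, and from -0.22 to 0.35 over the 20 pairs between the sets. In the 14 AAV9 libraries, group differences included, the first set ran from 0.78 to 0.93, the C1q pairs from 0.74 to 0.94 and the pairs between the sets from -0.19 to 0.66. There C3ar1 with the C1q genes ran from 0.36 to 0.65, inside the range over all pairs between the sets. In that cohort C3ar1 itself was lower with C1ra, C1s1, C3, C4b and Cfb, at 0.09, 0.05, -0.19, 0.10 and 0.11. These values describe libraries that share depth and tissue composition, and are given without a test.

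**Figure D3:**
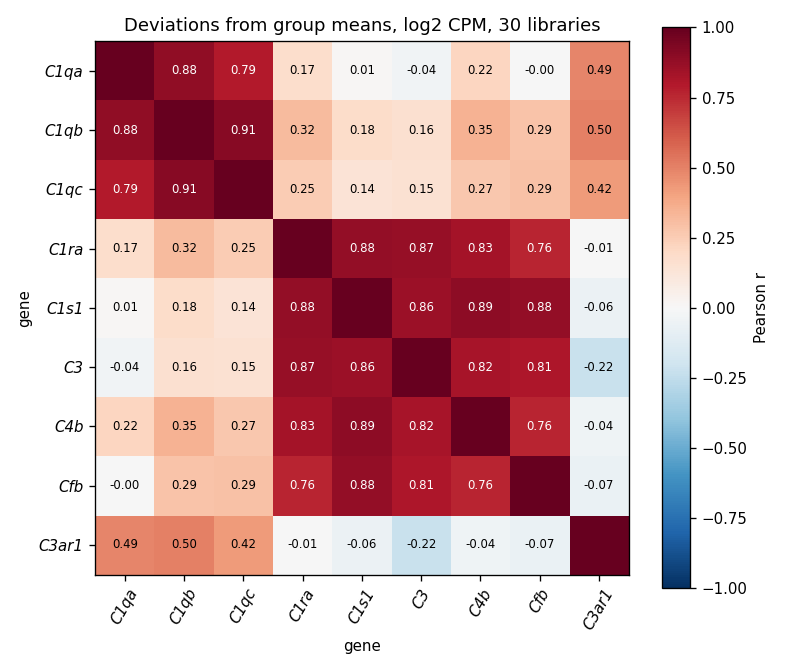
Pearson correlation (colour and number) of each pair of the 9 complement genes (both axes) over deviations from group means of log2 CPM in 30 libraries. Dark blocks hold C1qa, C1qb and C1qc (0.79 to 0.91) and C1ra, C1s1, C3, C4b and Cfb (0.76 to 0.89). Pairs of a C1q gene or C3ar1 with a gene of the second block lie between -0.22 and 0.35.

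The genes most like each member over the 30 libraries, among 10531 genes whose mean reached 5 CPM, split largely the same way. C1qb was most like C1qa (r 0.95), C1qc (0.91) and Ctss, a lysosomal protease of antigen-presenting cells (0.88). C1qc was most like Lyz2, the myeloid lysozyme (0.92), C1qb and Ctss (both 0.91). C1qa had Npc2, a lysosomal cholesterol carrier (0.87), and Pcolce, which promotes procollagen cleavage (0.86), behind C1qb. Over deviations from group means Npc2 was at 0.75 with C1qa and Pcolce at 0.83. C3ar1 was most like Lcp2, a signalling adaptor of blood cells (0.88), C5ar1 (0.87) and Lilr4b (0.86). For C3ar1 these values fell to 0.66, 0.76 and 0.53 over deviations from group means.

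C1s1 was most like Srpx (r 0.87), C4b (0.87) and C1ra (0.86). C3 was most like Slit3, a secreted guidance protein (0.88), Fbln1, a matrix protein (0.86), and C1ra (0.85). C4b was most like C1ra (0.90), Rnase4, a secreted ribonuclease (0.88), and Trf, the transferrin gene (0.87). C1ra in turn was most like C4b, Rnase4 (0.87) and C1s1. Over deviations from group means C3 stayed at 0.91 with Slit3 and 0.88 with Fbln1. The mean of Cfb was below the 5 CPM limit, so no likeness was computed.

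Within groups, C3, C1ra and C1s1 were high in hearts with much Myl7. Of the 7 groups that hold libraries on both sides of 10 CPM of Myl7, C3 was higher in every Myl7-high library than in every Myl7-low library in 6, C1ra in 6 and C1s1 in 5. In 5 of the 7 groups one side holds 1 library, so that separation is frequent: of 15310 genes tested in both cohorts, 2.01% were above in at least 6 groups, 7.18% in at least 5 and 32.4% in at least 3. C4b and Cfb were above in 3 groups each, near that background. In FF_sham, C3 read 377.6 and 215.6 CPM in the Myl7-high libraries 2 and 3 and 124.1 and 155.9 CPM in libraries 1 and 4. The exception for C3 was AAV_sham, where AAV_sham 3 (Myl7 20.8 CPM) had 131.3 CPM of C3 and AAV_sham 4 (Myl7 0.592 CPM) had 155.0 CPM. The highest C3 of the series was 633.9 CPM in PBS_sham 2, which also had the largest sum of mesothelial markers, 323 CPM. KO_TAC 3 was high without either, with C3 at 363.2 CPM, Myl7 at 0.618 CPM and 8.10 CPM of mesothelial markers. Of the C1q genes, C1qa was wholly above in 2 of the 7 groups and wholly below in 4, C1qb above in 3 and below in 2, and C1qc above in 1 and below in 4, where 16.3% of all genes were below in at least 4.

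**Figure D4:**
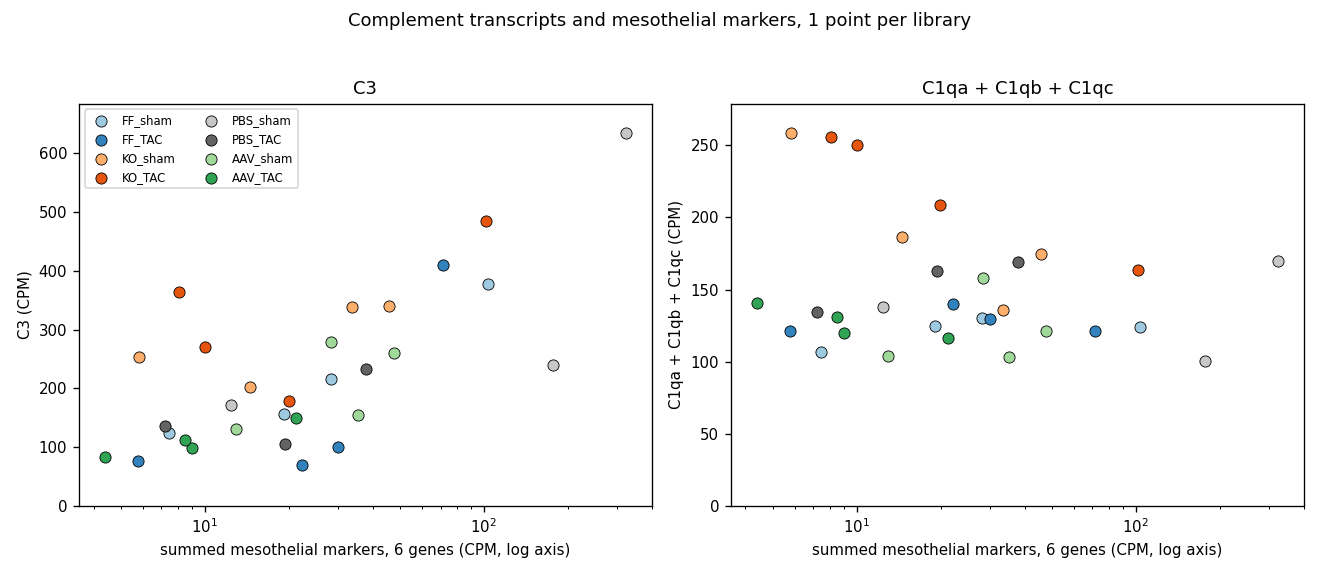
C3 (left) and the sum of C1qa, C1qb and C1qc (right), in CPM from 0, against the sum of 6 mesothelial markers in CPM on a log axis. Each point is 1 of the 30 libraries, coloured by group; C3 is highest, at 633.9 CPM, where the markers reach 323 CPM, while the C1q sum is high in KO_TAC and KO_sham libraries with few mesothelial transcripts.

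Sham-operated knockout hearts had no complement gene past the threshold. In KO_sham against FF_sham, 0 of the 9 were called by edgeR, where 0% of the 15596 genes tested were called. All 9 had positive log2 fold changes, with a median of 0.56 beside 0.00 over all genes. Unadjusted p was under 0.05 for 4 of the 9 and for 5.22% of all genes. DESeq2 gave an adjusted p to only 2771 genes and called 14 of them, with no complement gene. It gave C1qa an adjusted p of 0.0805 and C1qb 0.096, and none to 6 of the 9, which include C1qc and C3ar1. These values are adjusted over far fewer genes than those of edgeR, so the 2 are not alike.

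C1qa read 85.6, 46.9, 60.8 and 58.9 CPM in KO_sham 1 to 4 and 39.2, 37.1, 41.9 and 39.5 CPM in FF_sham 1 to 4. All KO_sham libraries lay above all FF_sham libraries, with the library labelled KO_sham 2 the lowest (log2 fold change 0.67, SE 0.19, edgeR adjusted p 0.798). C1qb read 98.4, 51.4, 68.2 and 62.7 CPM against 35.2, 47.9, 49.8 and 44.1 CPM, again without overlap (0.66, SE 0.19, adjusted p 0.82). C1qc read 74.2, 37.5, 57.7 and 52.9 CPM against 32.1, 39.3, 38.3 and 40.9 CPM (0.56, SE 0.15, adjusted p 0.798). Here only the library labelled KO_sham 2 lay within the FF_sham range.

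C3ar1 read 15.2, 11.2, 10.2 and 9.23 CPM in KO_sham 1 to 4 and 5.57, 7.06, 4.93 and 6.62 CPM in FF_sham 1 to 4, with no overlap (0.92, SE 0.31, adjusted p 0.9). Of all genes tested, 3.26% had every KO_sham library above every FF_sham library. Without the library labelled KO_sham 2 the log2 fold changes were 0.78, 0.77 and 0.70 for C1qa, C1qb and C1qc, with adjusted p of 0.455, 0.513 and 0.183, and 0.92 for C3ar1. The 12 macrophage markers summed to 176.6 to 270.1 CPM in KO_sham and 117.7 to 184 CPM in FF_sham. All 12 had positive log2 fold changes (median 0.74) and none was called, and their part in the C1q values was not tested. C3 and C4b had log2 fold changes of 0.38 (SE 0.51) and 0.58 (SE 0.40), and all of the C1ra, C1s1, C3, C4b and Cfb values overlapped between the groups.

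TAC itself moved no complement gene past the threshold in control floxed hearts. In FF_TAC against FF_sham, edgeR called 0 of the 9 and 0% of the 15596 genes tested. Unadjusted p was under 0.05 for 11.1% of all genes and for 1 of the 9, C3ar1 (log2 fold change 0.67, SE 0.31, adjusted p 0.447), and DESeq2 called 166 genes and none of the 9. The 2 high FF_TAC libraries for C3ar1 were the haemoglobin-low ones. In haemoglobin-high libraries alone its log2 fold change was -0.09. The C1q genes stayed between -0.09 and 0.16, with SE of 0.15 to 0.19. C3 (-0.41, SE 0.51) and C4b (-0.26, SE 0.40) turned to 0.16 and 0.19 in haemoglobin-high libraries alone. Without FF_TAC 1 they were -1.41 (adjusted p 0.0851) and -0.81 (adjusted p 0.238), while C3 was -0.02 without FF_sham 2 and C4b -0.05 without FF_sham 3, so single libraries set both values.

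In knockout hearts, KO_TAC against KO_sham, 0 of the 9 were called although 25.8% of the 15596 genes tested were. The nearest were C3ar1 (log2 fold change 0.73, SE 0.30, adjusted p 0.0828) and C1ra (0.49, SE 0.23, adjusted p 0.113), the 2 of the 9 with an unadjusted p under 0.05. C1qa (0.35, SE 0.19), C1qb (0.37, SE 0.19) and C4b (0.75, SE 0.39) were positive, and C1qc was at 0.00 (SE 0.15). C1s1 (0.02, SE 0.24), C3 (0.23, SE 0.51) and Cfb (0.81, SE 0.60) did not pass either. KO_TAC 1 and KO_sham 1 set several of these values. Without KO_TAC 1, C1qa (0.49), C1qb (0.49) and C3ar1 (0.90) passed, with edgeR adjusted p of 0.0317, 0.0393 and 0.0241. Without KO_sham 1, C1qb passed at 0.57 (adjusted p 0.0393), and without KO_TAC 4, C1ra at 0.63 (adjusted p 0.0481). With log2 Myl7 as a covariate, C1ra (0.55, adjusted p 0.022) and C4b (0.87, adjusted p 0.0434) passed. Haemoglobin-low state and TAC overlap almost wholly in the knockout hearts, since the only haemoglobin-low sham library is the library labelled KO_sham 2. Of the 12 macrophage markers, 2 were called lower in KO_TAC than in KO_sham and 0 higher, with a median log2 fold change of -0.21. Their part in the C1q values was not tested.

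The TAC response of the 9 genes was not shown to differ between genotypes. The interaction of knockout and TAC called 0 of the 9 by edgeR, and 0.0449% of all genes, and no unadjusted p of the 9 was under 0.05; DESeq2 called 0 of the 9 too. The largest estimates were C4b at 1.01 (SE 0.56, adjusted p 0.451), C3 at 0.64 (SE 0.73, adjusted p 0.721) and C1ra at 0.57 (SE 0.32, adjusted p 0.454). Single libraries set their size: C3 ran from 0.23 without FF_sham 2 to 1.63 without FF_TAC 1, C4b from 0.78 without FF_sham 3 to 1.55 without FF_TAC 1, and Cfb from -0.18 without FF_sham 2 to 1.23 without FF_TAC 1. For C1qa, C1qb and C1qc they were 0.19, 0.24 and 0.08, with SE of 0.26, 0.27 and 0.22. The comparisons above share groups, so their values are set side by side and not treated as independent.

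Other complement genes were followed from a list of 46, of which 29 were tested in the floxed cohort. In KO_TAC against FF_TAC, 6 were called higher and 3 lower, where 14.3% of all genes tested were called. Those described by name are Cpn2, Clu, Masp1, Serping1 and Cd55, all among the leading 6 by size. Among genes that start the cascade, Masp1, a protease of the lectin pathway, rose with a log2 fold change of 1.18 (SE 0.33, adjusted p 0.028), from 8.00 to 19.2 CPM in FF_TAC to 21.7 to 49.1 CPM in KO_TAC. It was 1 of 7 initiation genes tested.

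Regulators, the proteins that restrain complement, gave 7 of the 9 calls. Serping1, the C1 inhibitor that blocks C1r and C1s, read 202.8, 243.2, 312.5 and 177.5 CPM in KO_TAC 1 to 4 and 149.5, 105.0, 102.8 and 88.9 CPM in FF_TAC 1 to 4. Its groups did not overlap (log2 fold change 1.11, SE 0.20, adjusted p 0.00263). Clu, clusterin, which blocks the terminal complex, rose by 1.49 (SE 0.19, adjusted p 0.000537), with 1171 to 2414 CPM in KO_TAC and 576 to 780.9 CPM in FF_TAC. Cd55, which dissolves the enzymes that split C3, rose by 0.98 (SE 0.23, adjusted p 0.0103). Cpn2, the carrier subunit of the carboxypeptidase that trims C3a and C5a, was lower by a log2 fold change of -2.09 (SE 0.58, adjusted p 0.0264), at under 4 CPM in all of these libraries. Of 10 regulators tested, 4 were higher and 3 lower.

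The terminal genes, of which 2 of 7 were tested, and the alternative pathway genes Cfd and Cfp had no call in that comparison. Of 8 receptor genes tested 1 was called, higher. In KO_TAC against KO_sham, Masp1 (1.29), Cd55 (0.93), Serping1 (0.92) and Clu (1.34) were called higher, and Cpn2 (-2.74) and C5ar2 (-0.86), a second receptor for C5a, lower. These are 6 calls among the 29 tested, a share below the 25.8% of all genes called there, and so no result about complement genes. Summed over the list, the 14 regulators held 1756 to 3324 CPM in KO_TAC and 953.7 to 1406 CPM in the other floxed groups. Clu, at the levels given above, made up a large part of that sum, so it does not stand for a rise of all regulators. In KO_TAC against FF_TAC the 10 regulators tested had a median log2 fold change of 0.22, with 4 called higher and 3 lower. No other complement gene was called in FF_TAC against FF_sham or KO_sham against FF_sham.

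In the AAV9 cohort no complement gene passed the threshold in any comparison. Of the 9 genes, 8 were tested there. For TAC against sham in PBS mice, edgeR called 0 of the 8 and 0.0318% of the 15745 genes tested; DESeq2 called 363 genes and none of the 8. C3 read 136.4, 232.7 and 106.2 CPM in PBS_TAC 1 to 3 and 171.3, 633.9 and 240.5 CPM in PBS_sham 1 to 3. The groups overlapped through PBS_TAC 2, with a log2 fold change of -1.16 (SE 0.45, unadjusted p 0.0216, edgeR adjusted p 0.213), the 1 unadjusted p under 0.05 among the 8. Without PBS_sham 1 it was -1.49 and passed (adjusted p 0.0453), without PBS_sham 2 it was -0.44 (adjusted p 0.463), and with log2 Myl7 as a covariate it was -0.60 (adjusted p 0.603). The 6 mesothelial markers moved with C3: they summed to 12.4 to 323 CPM in PBS_sham and 7.21 to 37.9 CPM in PBS_TAC, and Myl7 was over 200 CPM in all 3 PBS_sham libraries. Their part in the C3 value was not tested. C3ar1 read 4.87, 7.45 and 5.24 CPM in PBS_TAC against 4.40, 3.66 and 2.94 CPM in PBS_sham, with every PBS_TAC library above (0.65, SE 0.32, adjusted p 0.283), as for 8.72% of all genes.

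In mice given AAV9.Cpt1a, TAC against sham also gave 0 calls among the 8, with 0.00635% of the 15745 genes called by edgeR and 96 genes, none of the 8, by DESeq2. C3 read 98.3, 83.7, 148.8 and 111.6 CPM in AAV_TAC 1 to 4 and 279.5, 259.4, 131.3 and 155.0 CPM in AAV_sham 1 to 4. Only AAV_TAC 3 lay within the AAV_sham range, and it was the AAV_TAC library with high Myl7 (269.5 CPM). The log2 fold change was -0.91 (SE 0.39, unadjusted p 0.035, adjusted p 0.645), again the 1 unadjusted p under 0.05 among the 8. The C1q genes ran from 0.01 to 0.10, with SE of 0.15 to 0.18.

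**Figure D5:**
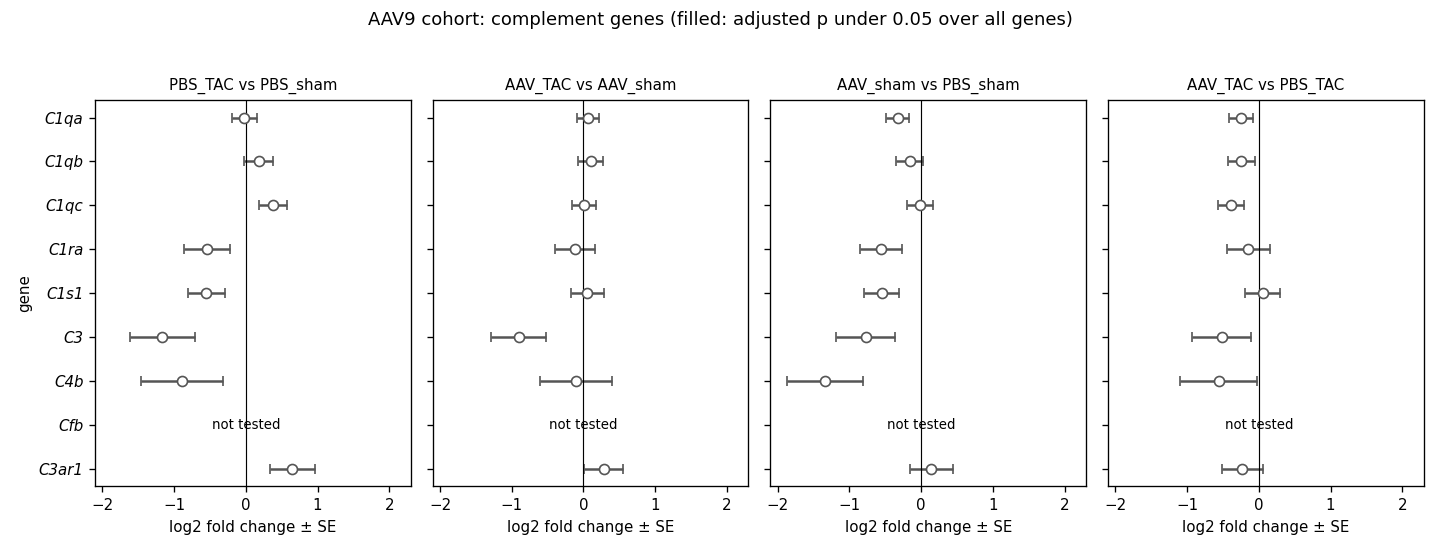
Log2 fold change ± SE (horizontal axes) of the complement genes (vertical axis) in 4 comparisons of the AAV9 cohort, from edgeR. No point is filled, since no gene passed an adjusted p of 0.05; C3 lies to the left of 0 in all 4 panels, and Cfb was not tested. Panels that share a group are not independent.

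The vector was compared with PBS under each surgery. In AAV_sham against PBS_sham edgeR called 0 of the 8 and 0.0127% of all genes, and DESeq2 called 329 genes and none of the 8. C4b read 44.3, 31.1, 12.3 and 16.3 CPM in AAV_sham 1 to 4 and 29.9, 104.2 and 59.4 CPM in PBS_sham 1 to 3. They overlapped through PBS_sham 1, with a log2 fold change of -1.34 (SE 0.53, unadjusted p 0.025, adjusted p 0.199). C1s1 was at -0.55 (SE 0.24, unadjusted p 0.0402, adjusted p 0.227), the other of 2 unadjusted p under 0.05. Without PBS_sham 1 both passed, C4b at -1.68 (adjusted p 0.0479) and C1s1 at -0.77 (adjusted p 0.0386). Without PBS_sham 2 they were -0.84 (adjusted p 0.323) and -0.28 (adjusted p 0.448). PBS_sham 2 and PBS_sham 3 are the 2 libraries of the series with the largest sums of mesothelial markers (323 and 176.8 CPM).

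In AAV_TAC against PBS_TAC edgeR called 0 of the 8 and 0.0381% of all genes, with no unadjusted p under 0.05 among the 8, and DESeq2 called 36 genes and none of the 8. C1qc read 36.8, 39.3, 34.3 and 36.5 CPM in AAV_TAC 1 to 4 and 41.9, 52.7 and 49.7 CPM in PBS_TAC 1 to 3. Every AAV_TAC library was below every PBS_TAC library, as for 4.36% of all genes, with a log2 fold change of -0.39 (SE 0.18, adjusted p 1). C1qa (-0.25) and C1qb (-0.24) overlapped. The interaction of vector and TAC called 0 of the 8 by edgeR, where 0.00635% of all genes were called, with no unadjusted p under 0.05 among the 8, and 0 by DESeq2. Its estimates ran from -0.37 (C3ar1, SE 0.42) to 0.78 (C4b, SE 0.76). Of the 46 other complement genes, none of those tested was called in these 4 comparisons of groups. Tested were 7 of 14 initiation genes, 2 of 2 alternative pathway genes, 2 of 7 terminal genes, 10 of 14 regulators and 8 of 9 receptor genes.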

How the data were processed

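The authors deposited whole-number read counts per gene for 30 libraries. Per the submitters' processing notes, HISAT2 2.1.0, featureCounts, Subread 1.5.1 and GRCm38 were named; the strand setting and annotation release are not given in the sources used here. Per the labels' protocols, libraries were directional, poly(A)-selected and sequenced paired-end. KO_TAC titles mention sham as well as TAC, so the genotype and treatment fields and the table's header were used, which all give knockout and TAC. Totals ran from 14839758 to 22070373 counts.

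Of 55487 identifiers, 55227 matched a symbol in GENCODE M21; the others held 0.00336% of counts. Each cohort was fitted alone with edgeR 4.0.16 in R 4.3.3 (TMM, filterByExpr, quasi-likelihood F test, 1 mean per group), with Benjamini-Hochberg adjustment over 15596 (floxed) or 15745 (AAV9) genes. Alternatives were DESeq2 1.42.0, RLE size factors, no filter, a replicate block, a Myl7 covariate, a haemoglobin term (split at 100 CPM), libraries on one side of that split, and leaving out each library; libraries with Myl7 under 10 CPM alone were added after seeing the data. Likeness and correlations used log2 CPM with a prior count of 2. The fits were tested on simulated data. Over 42 within-group pairs the chi-square per degree of freedom was at least 6.29, so no library was a duplicate of another in its group. Pairs across groups were not compared. The 9 genes and all lists were chosen with earlier results of these data known. All 9 genes were named, of other complement genes at most the 6 largest calls per comparison, and of marker lists at most 3 calls. A gene of the complement lists that this rule would name is counted but not reported here. The titles number the hearts but say nothing of litters or days, so p-values measure the spread between these libraries, which may be technical in part.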

Additional observations from a re-analysis of the deposited data

Results flagged for a closer look

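Each complement gene was looked at in each group of 4 libraries for a library far from the other 3, by Dixon's gap test at the 95% level. Of 54 such groups 5 had one, and chance gives about 1 in 20. FF_TAC 1 accounted for 4 of the 5, with C3 at 410.8 CPM (next library 100.1), C4b at 51.85 CPM (next 21), C1ra at 23.45 CPM (next 15.67) and Cfb at 0.902 CPM (next 0.284). These 4 genes vary together between hearts, so they are not independent sightings. The fifth was C1ra in AAV_TAC 3, at 20.64 CPM (next 15.21). Both libraries had more Myl7 (76.4 and 269.5 CPM) than the others of their groups, and its part in these values was not tested.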

How the results depend on the processing

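The number of complement genes called in KO_TAC against FF_TAC was 6 with DESeq2, RLE size factors, no filter and libraries with Myl7 under 10 CPM, 7 with the Myl7 covariate and 4 with the haemoglobin term; it was 0 among haemoglobin-low libraries alone, a fit with fewer samples, and 3 to 6 when a library was left out. The 6 in libraries with Myl7 under 10 CPM include C3 (edgeR adjusted p 0.00681) and not C3ar1 (adjusted p 0.0703). The number called was lowest, at 3, without FF_TAC 4 or KO_TAC 3. In KO_TAC against KO_sham it was 0, but 2 with the Myl7 covariate and 0 to 3 when a library was left out; in PBS_TAC against PBS_sham it was 0 to 1 and in AAV_sham against PBS_sham 0 to 2 when a library was left out, each highest without PBS_sham 1. In the other 6 comparisons it was 0 under every alternative run.

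Replicate numbers are shared between groups, but same-numbered libraries did not deviate together in every pair of any comparison, so the numbers were not taken to pair the hearts. With a replicate block 6 of the 9 were called in KO_TAC against FF_TAC and 0 elsewhere.

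Some values that did not pass changed sign, and not all of them were near 0. In haemoglobin-high libraries alone, FF_TAC against FF_sham gave 0.16 for C3, 0.19 for C4b and -0.091 for C3ar1. With all libraries these were -0.41, -0.26 and 0.67. C3 in KO_TAC against KO_sham ran from -0.033 (without KO_TAC 1) to 0.42 when a library was left out. C4b in AAV_TAC against AAV_sham was 0.47 with the Myl7 covariate and ran from -0.34 to 0.28 when a library was left out, above 0 without AAV_sham 1, AAV_TAC 1 or AAV_TAC 4. C4b in AAV_TAC against PBS_TAC was 0.15 in libraries with Myl7 under 10 CPM and ran from -0.93 to 0.21 (without PBS_TAC 2) when a library was left out, and the C3 interaction of vector and TAC from -0.47 (without PBS_sham 2) to 0.64. The cause was not tested. Depth limits Cfb, with at most 30 counts per library, and so may the loss of reads that also fit Gm20547.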
